A study of Oryza sativa with 6 samples.

Results

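The abundant predicted miRNAs of rice were the small RNAs that the authors named as new candidates and that reached 100 reads in the 6 libraries together. They were selected on the summed read count alone, a limit that 98 of 695 predicted entries passed. Entries with the same mature sequence were taken once, with the entry of the highest count standing for them, which left 76 of 614 predicted sequences. The whole table held 1898 entries with 1684 distinct sequences.

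The libraries came from the susceptible recipient line 9311 (PC) and from a BPH15 introgression line (P15), which carries the brown planthopper (BPH) resistance locus BPH15 and is called resistant in the labels. Each line was sampled without insects (PC-0, P15-0) and after BPH feeding for 6 h (PC-6, P15-6) and 48 h (PC-48, P15-48), with 8 insects per seedling, and all infestations were timed to end together. Each library pooled 30 plants and stood alone in its condition, so a difference between libraries compares those libraries and has no replicate library to check it. The labels give leaf sheath of 3-week-old plants at the four-leaf stage, whereas the methods of the study give stems of younger plants.

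Plant miRNAs are cut from hairpin transcripts by Dicer-like enzymes, and 1 arm of the hairpin usually gives the mature miRNA while the other gives the less abundant star strand. Those of 21 nt with a first U are typically loaded into AGO1, which cuts matching mRNAs, those of 22 nt can start the making of secondary siRNAs from a cut target, and small RNAs of 24 nt with a first A mostly enter AGO4 and direct DNA methylation. Predicted candidates are hairpin-matching reads with no known family, and inverted transposon copies can give such reads as well, although the authors took out reads that fell on repeats before the prediction. For the members described here no target or function is given in the sources used here.

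The 10 members with the most reads are shown first, because they carried 63.8% of the members' reads. Sequences are in the 5′ to 3′ direction with T for U, as in the deposited table, and capitals mark the seed (bases 2 to 8).
m0269-3p: tTTTTTTTctaggacagagggagt
m0465-3p: tCAAACGTtgcaagtaaaaac
m0283-3p: tCAAACGTtgcaagtaaaaact
m0494-3p: tTAAACGTtgcaagtaaaaact
m0215-3p: tCAAGGACcgtagaattgctctt
m0546-3p: tATTATAAgacgttttgact
m0454-5p: aTATTATAagacgttttgac
m0073-5p: tCATTGGCgatcggattatcc
m0131-5p: tAACGTTTgactactcgtctta
m0487-5p: aCACAATAgatgttcggtcct

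Members whose levels differed between lines or changed with BPH feeding were mostly scarcer, and the ones that the results below turn on were these.
m0309-3p: aATCGGAAaagatttggtacc
m0321-5p: tGAGGGCTagagcctgcctctgg
m0458-5p: gTGCGCCAatgcttttcaagg
m0450-3p: tAGTTATTtgccacatctaaaag
m0249-3p: tTCAGATTcgtagtattatga
m0490-5p: aACGAAGTtgagtttgaact
m0101-5p: tTTGACACcgttgactttttaga
m0327-3p: tTGGCTGCatcccgttctcctc
m0520-3p: tTAATGTAtgacgacgttgact
m0052-5p: tTAATATAtgacgtcgttgact
m0266-5p: tTAATAGAtgacgttgttgact

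Several abundant members were near copies of one another. m0283-3p is m0465-3p with 1 more base at the 3′ end, and m0494-3p differs from m0283-3p by C2T, with positions counted from 1 at the 5′ end. The change lies inside the seed, so m0494-3p does not share the seed CAAACGT that m0465-3p, m0283-3p, m0367-3p and m0371-3p have in common. m0454-5p and m0546-3p share 19 bases and are shifted by 1 base, although the table gives them to different arms of different precursors. m0439-3p differs from m0215-3p by G13A, and m0030-5p is complementary to m0215-3p over 18 bases. m0052-5p differs from m0520-3p by G6A and A14T, and m0266-5p from m0052-5p by T7G and C15T. With at least 14 shared bases as the limit, 7 groups of related members were found, the largest with 5 sequences (m0508-3p, m0076-3p, m0466-3p, m0051-3p and m0083-3p). Some counts coincided. m0453-5p shares 22 bases with m0373-5p. In every library the count of m0453-5p equalled that of m0554-5p and m0156-5p, which are entries with the m0373-5p sequence. m0371-3p and m0392-3p share 20 bases and had equal counts in PC-6 and in each P15 library, with totals of 147 and 144. Whether these were the same reads under more than 1 name was not tested. Such sequences are still counted as separate members, so sums over members are given only as descriptions.

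Of the 76 sequences, 16 were listed under several entries, 38 in all, and 3 of these had identical counts in all their entries. Between the member entries of the others the totals differed by at most 1.41 times (m0157-5p, 165 against 117 reads). The threshold fell in a dense range of counts. m0062-3p had 100 reads and m0364-5p, a copy of another member, 102, while m0498-5p missed it with 98 reads, m0094-5p, a further copy of m0157-5p, with 89 and m0159-5p with 84.

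The authors scaled each count to a library total to give TPM, and these totals lay between 1078716 (P15-48) and 1644065 reads (P15-6). Summed over the members, the reads were 0.464% (P15-6) to 0.647% (P15-48) of the library total. A count of 0 allows up to 3 reads, which is 1.82 TPM in P15-6 and 2.78 TPM in P15-48. Intervals and these limits cover counting error only. P15-6 stood apart, with a scaling factor of 0.806 by the trimmed mean of M-values (TMM), and the counts of calls that use it are given below with both scalings. As checks on other tissue and RNA quality, the panicle siRNA triggers miR2118 and miR2275 (19 of 19 entries with reads) summed to 145 (P15-6) to 185 (PC-6) TPM, and the 13 entries of 18 or 19 nt that end in CCA, as mature tRNAs do, summed to 1604 (PC-6) to 3145 (P15-0) TPM, the latter fragments being highest in P15-0. miR156 and miR172, which mark plant age, summed to 21018 (P15-48) to 35019 (PC-0) TPM and to 60.2 (P15-6) to 130 (P15-0) TPM. The part of these differences in the results was not tested.

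**Figure D1:**
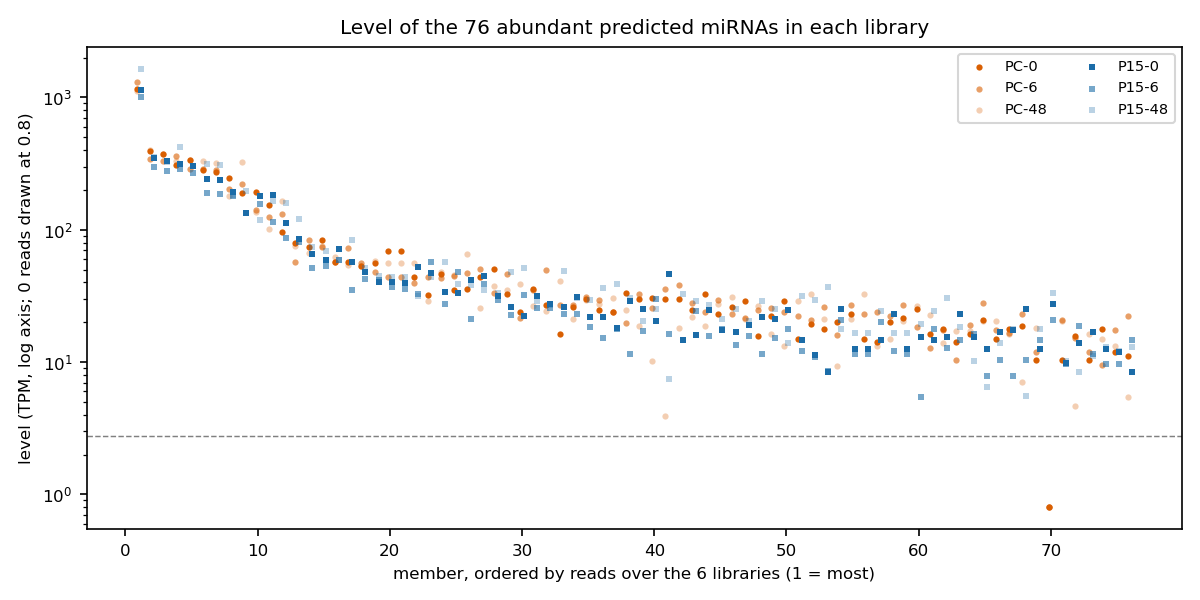
Level of each of the 76 members in the 6 libraries (TPM on a log axis; members ordered by reads; PC as circles, P15 as squares). The most abundant member lies near 1000 TPM, most others lie between 10 and 100 TPM, the 3 PC libraries of m0309-3p are drawn at 0.8 TPM because they had 0 reads, and the dashed line marks 2.78 TPM, the highest of the limits that 0 reads allow in the 6 libraries.

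The reads were unevenly spread over the members. m0269-3p alone held 21.3% of them, 11 members had at least 1000 reads, 40 had fewer than 200 and the median was 193. With reads in all 6 libraries stood 75 members, the exception being m0309-3p. m0269-3p had 1162, 1303 and 1114 TPM in the PC and 1129, 1015 and 1641 TPM in the P15 libraries at 0, 6 and 48 h, which made P15-48 its highest library. The next in order, m0465-3p, had 395, 345 and 402 TPM in PC and 350, 297 and 355 TPM in P15. m0283-3p had 374, 329 and 371 TPM in the PC and 332, 277 and 327 TPM in the P15 libraries, so that its levels ran below those of m0465-3p by a similar step in every library. The counting intervals of m0465-3p and m0283-3p overlapped in each library. m0215-3p, the fourth, had 310, 359 and 333 TPM in the PC and 314, 289 and 419 TPM in the P15 libraries.

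First base was no part of the selection, but length was bounded by the prediction, which took reads of 18 to 25 nt and, for the reference sequence, 20 to 23 nt. The predicted sequences ran from 20 to 26 nt, 605 of 614 lay within 20 to 23 nt, 5 had 24 nt and 2 had 26 nt, which is outside both ranges. Of the 76 members, 5 were 20 nt, 25 were 21 nt, 22 were 22 nt, 21 were 23 nt and 3 were 24 nt long. The 147 known rice sequences with at least 100 reads comprised 87 of 21 nt, 1 of 23 nt and 35 of 24 nt, so the members held more 23-nt and fewer 24-nt sequences than these. The scarcity of 24-nt members cannot be told apart from the length limit of the prediction. By reads the picture differed, because m0269-3p is a 24-nt sequence: the 3 members of 24 nt held 10016 of the 45434 reads and the 25 of 21 nt held 11086.

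U was the first base of 44 members (57.9%, Wilson 95% interval 46.7 to 68.4), A of 19, C of 8 and G of 5. By reads the share of U was 74.6%. The first base went with the length. Of the 22-nt members 19 of 22 began with U (86.4%, 66.7 to 95.3), against 10 of 25 at 21 nt (40.0%, 23.4 to 59.3) and 12 of 21 at 23 nt (57.1%, 36.5 to 75.5). The known sequences with at least 100 reads had the opposite order, with U first in 55 of 87 at 21 nt (63.2%, 52.7 to 72.6) and in 6 of 16 at 22 nt (37.5%, 18.5 to 61.4). The predicted sequences with fewer reads showed the excess of U at 22 nt too, in 134 of 160 (83.8%, 77.3 to 88.7), and had U in 100 of 171 (58.5%, 51.0 to 65.6) at 21 nt. The combination of 24 nt and a first A was found in 0 of 76 members, which allows a share of up to 4.81% by the Wilson interval, and in 23 of the 147 known sequences, with the same length limit in force. Related sequences are not independent of each other, and these intervals treat them as such.

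**Figure D2:**
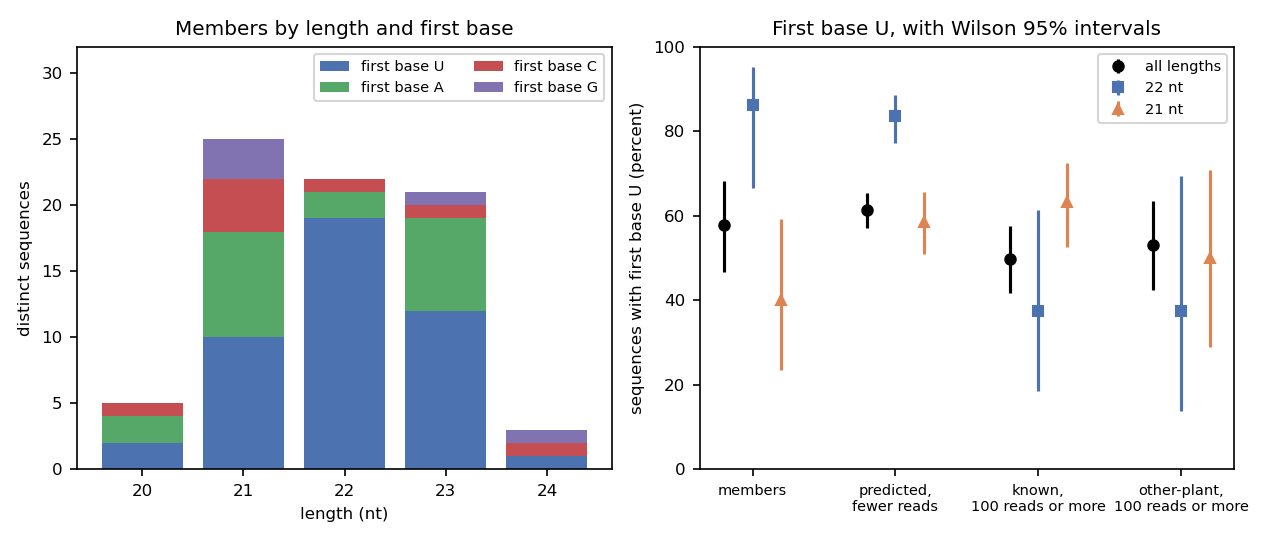
Left, number of distinct member sequences at each length (nt), divided by first base. Right, share of sequences with a first U (percent, bars are Wilson 95% intervals) over all lengths, at 22 nt and at 21 nt, in the members, the predicted sequences with fewer reads, and the known and other-plant sequences with at least 100 reads; the 22-nt share is 86.4% in the members and 37.5% in the known ones.

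The table gives no genome strand, only the arm of the hairpin. Of the members, 32 lay on the 5p arm and 44 on the 3p arm, and the 3p members held 69.0% of the reads. U came first in 19 of 32 5p members (59.4%) and in 25 of 44 3p members (56.8%), shares whose intervals overlap widely. The member entries came from 95 precursors, and for 38 of these the table also listed the opposite arm. The more abundant arm exceeded the other by a median of 22.9 times, from 1.02 times in m0322 (146 reads on 3p, 143 on 5p) to 529 times in m0073 (1587 on 5p, 3 on 3p). m0131 was close to the latter, with 1580 reads on 5p and 3 on 3p. Both arms were members for m0269, m0283 and m0322. For the remaining precursors no opposite arm was listed.

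The members were poor in G and C, with a median of 38.1% and a range of 22.7 to 81.0%, against a median of 52.4% for the known sequences with at least 100 reads. Only 7 members reached 60%, among them m0447-5p, m0405-5p and m0164-3p. The 7 letters GTTTGAC, noticed in these sequences and then counted, or their complement GTCAAAC, stood in 16 of 76 members (21.1%, Wilson 95% interval 13.4 to 31.5). They stood in 48 of 538 predicted sequences with fewer reads (8.92%, 6.80 to 11.6). Among sequences with at least 100 reads, 0 of 147 known and 3 of 81 other-plant ones held them. With any number of reads it was 3 of 337 known and 11 of 733 other-plant sequences. The members with these letters, in capitals here, included neighbours in sequence and others with little else in common.
m0131-5p: taacGTTTGACtactcgtctta
m0508-3p: ttaaaacaGTTTGACtttgacta
m0076-3p: aacaGTTTGACtttgaccaaag
m0373-5p: ttttctaaacatGTTTGACcgtt
m0283-5p: tttttacttgtaacGTTTGACc
m0084-5p: tttccgtatccaacGTTTGACt
m0375-3p: agacggacgGTCAAACgttgaac
Some members also resembled listed miRNAs. m0375-3p shares 16 bases with MIR812-y (13388 reads over the 6 libraries), m0509-3p shares 18 bases with the known rice miR812v, and m0059-5p is complementary to 19 bases of miR812o-3p. m0546-3p contains all 18 bases of MIR5568-x, which had 114 reads against its own 2157. m0211-3p has the seed of miR1862e, m0327-3p that of miR812v and m0052-5p that of miR1429-5p. A shared stretch or seed is a description and does not place a member in a family.

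The spread of a member over the 6 libraries takes in line, time and library scaling together. Over the 75 members with reads in every library, the highest TPM was a median of 1.96 times the lowest, and 40 stayed under 2 times while 35 did not. For the 27 with at least 300 reads the median was 1.72 times and the highest 3.07 times (m0532-5p). For 44 of the 75 the lowest library was P15-6. With TMM in place of the totals the median was 1.82 times and 46 stayed under 2 times. The members with the smallest range relative to their mean were m0494-3p, m0465-3p, m0283-3p, m0375-3p and m0362-5p. m0494-3p had 335, 287 and 335 TPM in the PC and 301, 268 and 300 TPM in the P15 libraries. m0375-3p had 53.6, 55.6 and 53.0 TPM in the PC and 47.7, 42.6 and 51.0 TPM in the P15 libraries. The remaining one, m0362-5p, had 57.3, 57.2 and 62.3 TPM in PC and 71.5, 59.0 and 59.3 TPM in P15, with P15-0 as its highest library. Among the largest relative ranges were those of m0309-3p, m0321-5p, m0450-3p and m0266-5p, described below, and of m0062-3p, which had 15, 28 and 7 reads in the PC and 12, 24 and 14 in the P15 libraries and was highest at 6 h in each line.

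m0309-3p, a 21-nt sequence with a first A, was found in P15 alone. It had 0, 0 and 0 reads in PC and 39, 34 and 36 reads in P15 at 0, 6 and 48 h, or 27.4, 20.7 and 33.4 TPM in P15, so the lines did not overlap. All 109 reads that brought it past the limit of 100 came from P15, so that it entered the members through the line in which it was high, and its values are given as a description. Against 3 reads in each PC library, P15 was at least 12.3-fold higher at 0 h, at least 8.68-fold higher at 6 h and at least 14.3-fold higher at 48 h. With line and time as terms, a quasi-likelihood fit by edgeR (TMM, 3 libraries per line) called it with a Benjamini-Hochberg adjusted p = 0.00196, where 1.96% of all 408 entries tested were called. It was the 1 member of 76 called for the line, and DESeq2 called it as well, with an adjusted p = 1.13e-06. These p-values are no independent test of a sequence that was admitted through P15. The adjusted p by edgeR was 0.14 without PC-48 and 0.0817 without P15-48, and at most 0.0377 when any one of the other libraries was left out. No other arm of this precursor was listed. The fit takes as error how far the difference between the lines varied over the time points, not the spread between plants. Its fold change depends on the prior count because PC had no reads. Unadjusted, 10 members passed p under 0.05 for the line, 4 higher and 6 lower in P15, or 13.2% of members against 10.3% of all entries.

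Of 3 related 22-nt members, the line fit called none (adjusted p by edgeR 0.122 for m0266-5p, 0.381 for m0052-5p and 0.937 for m0520-3p). m0266-5p had 28, 35 and 26 reads in the PC and 18, 13 and 7 in the P15 libraries, so its lines did not overlap either. The TPM of the lines were also apart in other members, among them m0371-3p, m0392-3p and m0375-3p, lower in P15, and m0270-3p, higher in P15. How often this occurred over all entries was not counted. The ratio of P15 to PC was 0.606 (95% counting interval 0.316 to 1.13) at 0 h, 0.284 (0.138 to 0.551) at 6 h and 0.320 (0.117 to 0.758) at 48 h. The near copy m0052-5p had 34, 23 and 34 reads in the PC and 22, 9 and 21 in the P15 libraries, with the TPM of P15-48 (19.5) above that of PC-6 (18.3), and its ratio of P15-6 to PC-6 was 0.300 (0.122 to 0.672). The third of these sequences, m0520-3p, had 33, 37 and 35 reads in the PC and 31, 25 and 39 in the P15 libraries, and its lines overlapped, with P15 above PC at 48 h (36.2 and 27.3 TPM). m0131-5p, one of the abundant members, had 190, 222 and 327 TPM in the PC and 135, 134 and 196 TPM in the P15 libraries. Its ratios of P15 to PC were 0.707 (0.583 to 0.856), 0.604 (0.504 to 0.723) and 0.598 (0.504 to 0.707), which misses the 2-fold threshold.

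In comparisons of 2 libraries, a member was called if its log2 fold change reached 1 in either direction with P under 0.05. These limits are those that the methods of the study give. P was unadjusted and came from edgeR's exact test with no spread beyond counting error, which was chosen here. The study names edgeR but not the spread that it used. At 0 h, P15-0/PC-0 had 3 called members, 1 higher (m0309-3p; background 2.63% of entries with at least 100 reads) and 2 lower (background 1.32%), which were m0327-3p with 21 against 40 reads and m0450-3p with 12 against 24. With TMM both of the lower calls were lost, with log2 fold changes that hardly moved (from -1.01 to -0.96 for m0327-3p and from -1.08 to -1.02 for m0450-3p). At 6 h, P15-6/PC-6 had 1 higher (background 0.987%) and 14 lower (background 10.5%), with overlapping m0371-3p and m0392-3p counted separately among the lower. At 48 h, P15-48/PC-48 had 3 higher (background 4.93%), namely m0309-3p, m0101-5p and m0328-5p (18 and 33 reads), and 1 lower (background 1.32%), m0266-5p. With the clean reads of the study as totals this became 2 higher (3.29% of all) and 4 lower (2.96%), and m0309-3p, m0101-5p and m0266-5p kept their calls. m0309-3p is among the higher calls at each time, but it was admitted through P15, so its calls are no test.

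The many lower calls at 6 h moved with the scaling. The median log2 fold change of P15-6/PC-6 over all entries with at least 100 reads was -0.36 when scaled by the totals and 0.00 by TMM, and that of the members was -0.45 and -0.09. With TMM, 5 members were called, 1 higher and 4 lower, where 2.63% of all entries were called in each direction. The 4 were m0266-5p, m0052-5p, m0450-3p and m0327-3p. With the library totals, m0450-3p had 33 (PC-6) and 14 (P15-6) reads, a ratio of 0.325 (0.161 to 0.624). On the same scale m0327-3p had 48 and 24 reads, a ratio of 0.383 (0.224 to 0.637). With TMM their log2 fold changes were -1.25 and -1.02, and m0327-3p kept its call in 2 of 4 scalings. Among those that lost the call were m0532-5p, with 59 and 35 reads, and the overlapping pair m0371-3p and m0392-3p, with 34 and 19 reads each.

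After 6 h of BPH feeding few members differed from 0 h. In PC-6/PC-0, 0 of 75 members were called by edgeR's exact test, where 0.33% of entries were called higher and 3.3% lower, and with TMM 2 were called, m0062-3p and m0144-3p, both higher, where 1.65% of entries were called higher and 2.64% lower. In P15-6/P15-0, 0 members were called higher (background 0%) and 5 lower (background 12.2%). These were m0321-5p, m0052-5p, m0254-3p, m0458-5p and m0567-3p. The median over all entries was -0.31 with the totals and 0.04 with TMM, 14 of 76 members lay above 0 with the totals and 50 with TMM, and the calls became 1 higher (m0062-3p, also higher with TMM in PC-6/PC-0) and 1 lower, against 0.329% and 4.28% of all entries, so no common direction can be given for this library. m0321-5p was the lower call that remained with TMM, where its log2 fold change moved from -1.49 to -1.14. With the library totals it was at 0.355 (0.218 to 0.563) times its level at 0 h. m0254-3p had 41 reads in P15-0 and 19 in P15-6, a ratio of 0.402 (0.220 to 0.708) with the library totals.

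At 48 h, 2 members fell in both lines past the thresholds, m0321-5p and m0458-5p. The share of all entries that did so in both lines was not counted, so this number has no background beside it. In PC-48/PC-0, 2 members were called higher (background 2.31%) and 6 lower (background 8.91%), and in P15-48/P15-0, 6 higher (background 4.93%) and 2 lower (background 3.29%). These shares lie near those of all entries. The balance in P15-48/P15-0 turned with the scaling: with clean reads as totals 2 members were called higher (0.658% of all) and 5 lower (14.8%), and the median over all entries moved from 0.02 to -0.36. The calls of m0450-3p, m0249-3p, m0321-5p and m0458-5p were shared by both scalings. The other lower calls in PC were m0101-5p, m0164-3p, m0171-5p and m0447-5p, and the last lost its call with TMM. The higher ones were m0490-5p and m0322-3p in PC, and m0450-3p, m0249-3p, m0212-3p, m0327-3p, m0084-5p and m0264-3p in P15.

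m0321-5p, a 23-nt sequence with 65.2% G and C, had 40, 45 and 5 reads in PC and 66, 27 and 8 reads in P15 at 0, 6 and 48 h. The 48 h libraries were the lowest in both lines, and P15-6 had already dropped below P15-0 and PC-6. At 48 h it was 0.131 (0.0403 to 0.332) times its 0 h level in PC and 0.160 (0.0664 to 0.335) times in P15. m0458-5p, which begins with G, followed the same course with 25, 29 and 9 reads in PC and 36, 17 and 6 reads in P15. It was 0.377 (0.155 to 0.835) times its 0 h level in PC-48 and 0.220 (0.0759 to 0.528) times in P15-48. Both sequences were lower at 48 h than at 0 and 6 h in each line.

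m0450-3p had 24, 33 and 27 reads in the PC and 12, 14 and 40 in the P15 libraries, so that P15 was below PC at 0 and 6 h and above it at 48 h. Its level in P15-48 was 4.41 (2.27 to 9.23) times that in P15-0. m0249-3p had 26, 26 and 42 reads in the PC and 16, 18 and 32 in the P15 libraries, with the 48 h library highest in each line, and was 1.69 (1.01 to 2.87) times its 0 h level in PC-48 and 2.64 (1.41 to 5.16) times in P15-48. m0490-5p had 22, 34 and 53 reads in the PC and 37, 38 and 53 in the P15 libraries. It was 2.52 (1.51 to 4.36) times its 0 h level in PC-48 and 1.89 (1.22 to 2.96) times in P15-48, the latter short of the threshold. m0084-5p and m0212-3p were likewise highest at 48 h in both lines, with 37 and 50 reads in PC-48 and 34 and 55 reads in P15-48.

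m0101-5p had 41, 32 and 13 reads in the PC and 29, 49 and 27 in the P15 libraries, and the fall to 0.332 (0.163 to 0.632) times in PC-48 had no counterpart in P15-48. m0322-3p had 20, 29 and 42 reads in the PC and 18, 19 and 18 in the P15 libraries, with PC-48 at 2.20 (1.26 to 3.95) times PC-0. The opposite arm m0322-5p had 22, 16 and 29 reads in the PC and 21, 29 and 26 in the P15 libraries, and was not called. m0327-3p had 40, 48 and 23 reads in the PC and 21, 24 and 35 in the P15 libraries, with the lines in opposite order at 48 h from that at 0 and 6 h. m0264-3p had 32, 30 and 39 reads in the PC and 26, 29 and 42 in the P15 libraries.

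**Figure D3:**
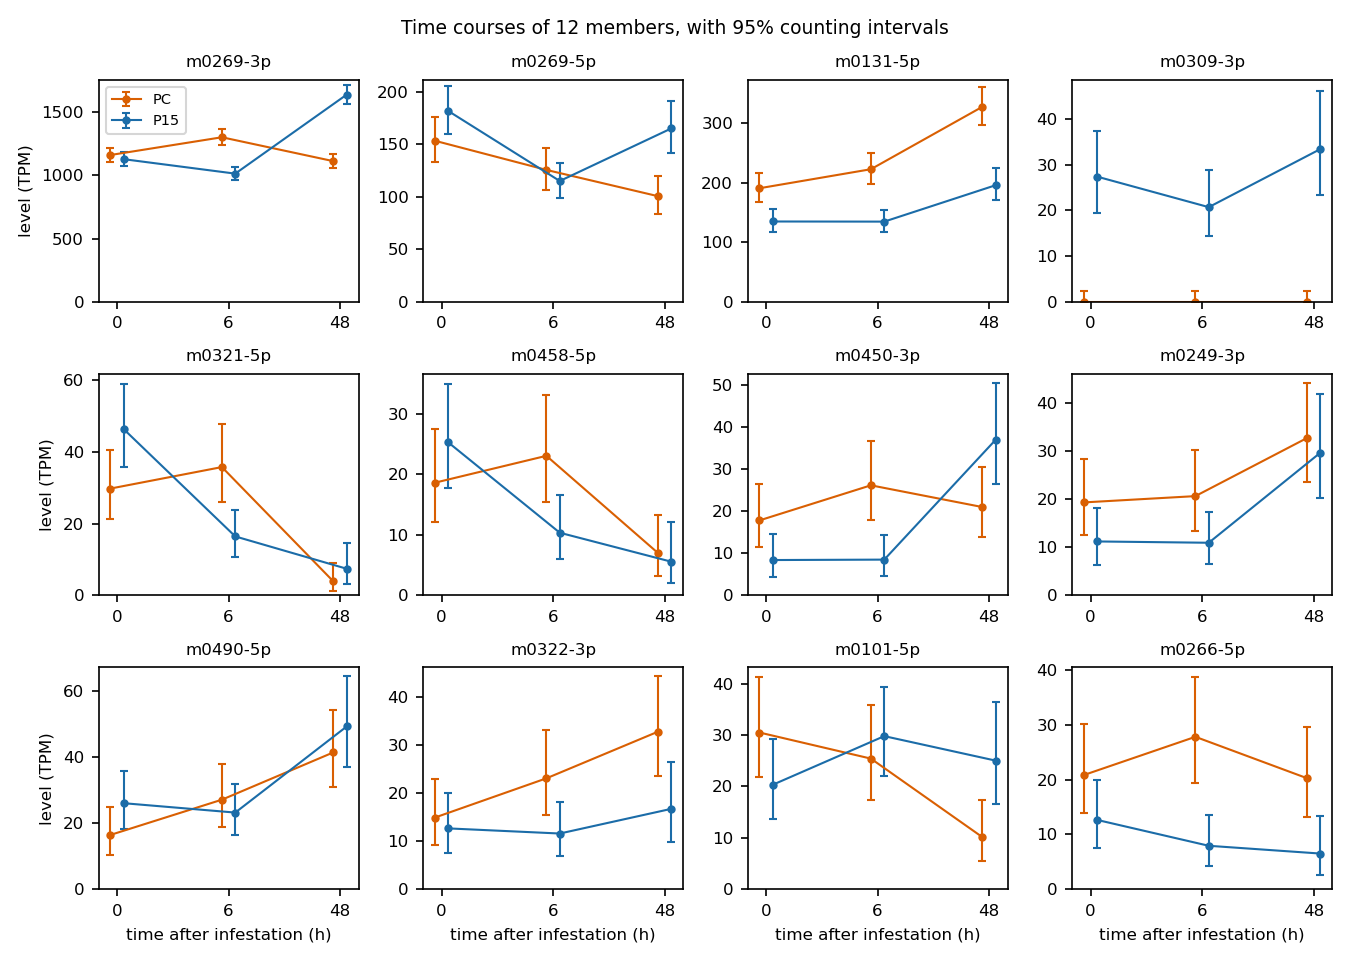
Level (TPM) of 12 members in PC and P15 without insects (0 h) and at 6 and 48 h of feeding; each point is 1 library and bars are exact 95% counting intervals, with 3 reads as the upper end at 0 reads. m0309-3p is at 0 in PC throughout, m0321-5p and m0458-5p are lowest at 48 h in both lines, and m0269-3p and m0450-3p are highest in P15-48.

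edgeR's quasi-likelihood fit over both lines called 0 of 76 members at 6 h and 0 at 48 h at an adjusted p under 0.05 (background 0% of 408 entries at each time), and DESeq2 called 0 and 0. Unadjusted, 5 members passed p under 0.05 at 6 h, or 6.58% against 9.31% of all entries, and 13 at 48 h, 9 higher and 4 lower, or 17.1% against 61 of 408 entries. Without P15-6, 7 members were called at 48 h, higher for m0490-5p, m0450-3p, m0249-3p, m0084-5p and m0212-3p and lower for m0321-5p and m0458-5p, which is 9.21% of members against 6.61% of all entries in that fit. Without PC-0 the log2 fold changes at 48 h were -3.21 for m0321-5p and -2.35 for m0458-5p, and without P15-0 that of m0321-5p was -2.17. Each of these fits leaves 1 library at 0 h. Calls at 48 h depended on which library was left out, and not every such fit had any.

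Several members differed by less than 2-fold with a counting interval that left out 1. m0269-3p was 1.45 (1.36 to 1.56) times its 0 h level in P15-48 and 0.958 (0.891 to 1.03) times in PC-48. Its opposite arm m0269-5p had 206, 158 and 129 reads in the PC and 259, 189 and 178 in the P15 libraries. It was 0.656 (0.522 to 0.821) times its 0 h level in PC-48 and 0.909 (0.746 to 1.10) times in P15-48. The ratios of both arms were thus higher in P15 than in PC, but for m0269-5p the intervals overlapped. Its difference of log2 fold changes, 0.47 (0.05 to 0.89), did not pass an adjusted p under 0.05 from counting error. m0215-3p was 1.33 (1.17 to 1.52) times its 0 h level in P15-48, whereas m0030-5p, complementary to it, had 74, 54 and 34 reads in P15 and was 0.607 (0.392 to 0.923) times. m0131-5p was 1.72 (1.47 to 2.01) and 1.45 (1.19 to 1.78) times its 0 h level in PC-48 and P15-48, and m0356-5p 1.72 (1.38 to 2.16) and 1.42 (1.14 to 1.78) times. m0487-5p lay below its 0 h level at 48 h in both lines, at 0.712 (0.584 to 0.865) and 0.651 (0.522 to 0.808) times. m0073-5p, the 21-nt member with the least balanced arms, was 0.736 (0.620 to 0.874) times in PC-48 and 0.944 (0.782 to 1.14) times in P15-48. These ratios rest on the library totals behind TPM. Clean reads as totals divide P15-48/P15-0 by 1.30 and PC-48/PC-0 by 1.08, which left m0269-3p at 1.12 (1.04 to 1.20) times in P15-48 and 0.885 (0.823 to 0.952) times in PC-48. The intervals in P15-48 then included 1 for m0215-3p, m0131-5p and m0356-5p, at 1.03 (0.898 to 1.17), 1.12 (0.915 to 1.37) and 1.09 (0.876 to 1.37) times. Those of m0073-5p and m0269-5p in P15-48 then lay below 1, at 0.726 (0.601 to 0.874) and 0.699 (0.574 to 0.849) times. With this scaling both members were below their 0 h level in each line.

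Summed, the members' level was close to constant in PC, with 5906, 5973 and 5951 TPM at 0, 6 and 48 h. In P15 it was 5423, 4639 and 6473 TPM. The ratio of P15-48 to P15-0 was 1.19 (1.16 to 1.23), and 1.13 (1.08 to 1.17) without m0269-3p. Between the lines at 48 h the ratio was 1.09 (1.05 to 1.12), and 0.999 (0.962 to 1.04) without m0269-3p, the interval of which includes 1. With clean reads as totals P15-48/P15-0 was 0.918 (0.889 to 0.948), and 0.865 (0.834 to 0.898) without m0269-3p, while P15-48/PC-48 was 0.953 (0.923 to 0.985) and 0.875 (0.844 to 0.908), so no direction can be given for these sums. The 16 members with GTTTGAC or its complement had 721 TPM in PC-0 and 533 TPM in P15-0, a ratio of 0.739 (0.671 to 0.814), and the ratio was 0.780 (0.709 to 0.857) at 48 h. m0131-5p had the most reads of the 16.

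The responses of both lines were set side by side at each time. Of 75 members, 26 lay above 0 in both lines, 17 below 0 in both and 32 on opposite sides at 48 h, and the log2 fold changes had a Pearson r of 0.56 and a Spearman rho of 0.40 across members. At 6 h the counts were 9, 26 and 40 and r was 0.18. With TMM these became 26, 16 and 33 for 48 h, and 31, 9 and 35 for 6 h, and with clean reads as totals 16, 35 and 24 for 48 h. The members share library depth, and related sequences may share reads, so these values carry no test. Among the 228 other sequences with at least 100 reads r was 0.47 at 48 h and 0.30 at 6 h. With the library totals, 55 of these lay above 0 in both lines, 92 below and 81 on opposite sides at 48 h. At 6 h the counts were 21, 111 and 96.

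The members that were low at 48 h were often rich in G and C, which was noticed after the values were seen. Across members, the log2 fold change and the share of G and C had r = -0.47 in PC-48/PC-0 and r = -0.36 in P15-48/P15-0, against 0.01 and -0.21 over the 147 known sequences with at least 100 reads. Spearman's rho was -0.39 and -0.31 over the members, and over the 36 members with at least 200 reads r was -0.32 (rho -0.24) and -0.33 (rho -0.38). Of the 13 members with at least 50% G and C, 11 lay below 0 in PC-48/PC-0 (median -0.43) and 7 in P15-48/P15-0 (median -0.01), against 30 of 62 (median 0.01) and 18 of 63 (median 0.25) of the others. m0164-3p, with 76.2% G and C, had 21, 19 and 6 reads in PC and 20, 31 and 9 reads in P15. m0447-5p, with 81.0%, had 27, 20 and 12 reads in PC and 36, 34 and 19 reads in P15. m0420-3p, with 61.9%, had 14.1, 23.8 and 13.3 TPM in PC and 14.7, 20.1 and 24.1 TPM in P15, where the 48 h library was the highest. The summed level of the 13 was 414 TPM in PC-0 and 316 TPM in PC-48, a ratio of 0.763 (0.670 to 0.869), and 416 and 373 TPM in P15, a ratio of 0.896 (0.788 to 1.02), which became 0.705 and 0.689 with clean reads as totals. The part of base composition in these values was not tested.

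**Figure D4:**
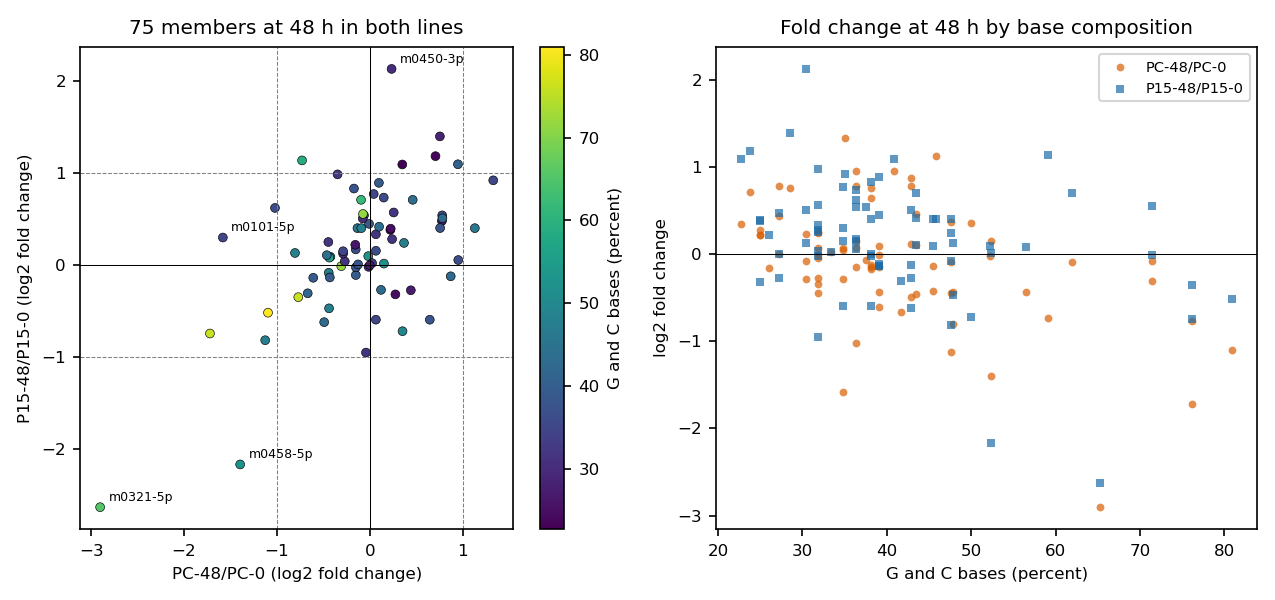
Left, log2 fold change at 48 h in PC (x axis) and P15 (y axis) for 75 members, coloured by the share of G and C, with dashed lines at 1 and -1; m0321-5p and m0458-5p are past -1 in both lines. Right, the same fold changes against the share of G and C (percent), where r is -0.47 in PC and -0.36 in P15.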

How the data were processed

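The authors sequenced gel-purified small RNAs, removed reads of other RNA classes and those falling on exons, introns or repeats, matched known miRNAs to miRBase release 21, and gave the rest, matched to the rice genome without mismatch, to Mireap. They deposited read counts and TPM (reads scaled to a library total, so TPM of entries sharing reads add up to more than that total). Library totals were derived here as deposited count over TPM. For the genome build and the aligner: not given in the sources used here. Columns of other samples: 0. Members, lists and tests were chosen with earlier results of these data known.

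Pairs of libraries were compared with edgeR 4.0.16 (exactTest, dispersion 0, prior count 0.125, library totals) in R 4.3.3. The additive fit used edgeR's quasi-likelihood test (line and time, TMM, filterByExpr, 2 residual degrees of freedom) with Benjamini-Hochberg adjustment over all entries tested. Background shares count distinct sequences with at least 100 reads. Counting intervals are exact conditional intervals of TPM ratios. Differences between the responses of the lines are differences of log2 fold changes with standard errors from the counts of 4 libraries. DESeq2 1.42.0 was the second tool, limma 3.58.1 is loaded by edgeR, and tables, intervals and plots came from Python 3.11.15 with numpy 2.4.6, pandas 2.3.3, scipy 1.17.1 and matplotlib 3.10.9. The fits were tested on simulated data. Promoter, coordinate and hairpin checks were not made because no genome was used here.

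Members named in the text were the 10 with the most reads, the called ones of each comparison with 20 or more reads in 1 of the libraries (at most 10, by fold change), those called in the additive fits, those named in the study or earlier results, and the 5 with the largest and the 5 with the smallest relative range. Others, such as m0269-5p, m0030-5p, m0520-3p, m0356-5p, m0322-5p, m0439-3p and m0420-3p, were named after their values were seen. Alternatives were TMM, median-of-ratios and clean reads as totals (for sums and ratios chosen after seeing the data), a coefficient of variation of 0.2, adjusted P, filters on reads, and leaving out each library.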

Additional observations from a re-analysis of the deposited data

Results flagged for a closer look

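The response of the lines to BPH feeding differed for 6 members at 48 h, by the difference of the log2 fold changes (P15 minus PC) with an adjusted p under 0.05 over all sequences tested, from counting error alone. It was 0.60 (95% interval 0.46 to 0.74) for m0269-3p, 1.87 for m0327-3p, 1.89 for m0101-5p, 1.90 (0.68 to 3.13) for m0450-3p, -1.07 for m0030-5p and -0.996 for m0532-5p. All 6 passed with TMM too, where the differences are lower by 0.08, and with clean reads as totals, where they are lower by 0.26 and the difference of m0269-3p is 0.34. Of the 303 sequences tested at 48 h, 64 passed (21.1%), so counting error alone leaves many differences standing.

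At 6 h, 8 members passed, at -0.32 for m0269-3p, -1.76 for m0321-5p, -0.81 for m0356-5p, -1.35 for m0532-5p, -1.04 for m0595-3p, -1.60 for m0458-5p, -1.57 for m0406-3p and -0.40 for m0454-5p, while 81 of 303 sequences passed (26.7%). With TMM these move up by 0.31, 4 members and 18.2% of all sequences pass, and m0321-5p alone among the members passes both ways. Each condition has 1 library, so spread between plants enters none of these tests.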

How the results depend on the processing

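Of the 43 single calls, TMM kept 26, median-of-ratios 25, clean reads as totals 23 and a coefficient of variation of 0.2 kept 28. Called members moved in PC-6/PC-0 from 0 to 2 (TMM) and 2 (median-of-ratios), from 8 to 5 with the coefficient of variation and 3 with adjusted P in PC-48/PC-0, and from 8 to 5 and 5 with the same in P15-48/P15-0. They moved in P15-6/P15-0 from 5 to 2 (TMM), 2 (median-of-ratios) and 3 (adjusted P), and in P15-6/PC-6 from 15 to 5 (TMM), 4 (median-of-ratios) and 4 (clean reads). P15-0/PC-0 had 3, and 1 with each of these 5 settings. P15-48/PC-48 had 4, 2 with the coefficient of variation and 1 with adjusted P. In the additive fit the line had 1 call, 2 without the filter on low counts or with every entry, and 0 to 2 leaving out 1 library. At 48 h it had 0, with 2 without the filter, 3 with every entry and 0 to 7 leaving out 1 library. The clean reads are counts the study gives. Used as totals, they reversed the summed ratio of P15-48/P15-0 (1.19 to 0.918, and 1.13 to 0.865 without m0269-3p) and of P15-48/PC-48 (1.09 to 0.953), a comparison chosen after seeing the data. No paired analysis was possible because replicate numbers pair no libraries (each condition had 1), but the additive fit compares the lines within each time. Depth limits most members, which had a median of 33 to 39 reads per library.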
